A study of Mus musculus with 394 samples.

Results

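The data described here compare 2 RNA fractions taken from the same region of the mouse midbrain, the substantia nigra pars compacta (SNc). The first is messenger RNA bound to tagged ribosomes of dopamine neurons (RiboTag IP). The other is the tissue lysate from which it was captured (Input), taken after the lysate had been cleared by centrifugation. The members were chosen by region, fraction, genotype and library type, which gave 3 IP and 3 Input full-length libraries, 6 of the 394 samples of the series. All 6 came from Cre+ RiboTag mice of 10 to 14 months of age, in which Cre recombinase is made from the dopamine transporter locus (DAT-IRES-Cre) and switches on an HA-tagged copy of the large-subunit protein eL22. The tag was therefore expected wherever that locus had been active, and an anti-HA antibody pulled down the polysomes that carried it. The SNc was cut from slices after the underlying substantia nigra pars reticulata (SNr) had been removed, and a vertical cut separated it from the ventral tegmental area (VTA), so neighbouring cells could be included. The labels gave each library its own entry and did not say which IP and Input libraries came from the same mouse, so the p-values below measure the spread between these libraries. For comparison, VTA and SNr full-length libraries of Cre+ mice of the same age (3 IP and 3 Input each) and 20 SNc libraries of another kind were used. The latter counted unique molecular identifiers (UMIs) at the 3′ ends of transcripts in 4 IPs and 4 Inputs of Cre+ mice and in 6 IPs and 6 Inputs of Cre- mice, which carry no tagged ribosome.

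Dopamine neurons of the SNc project to the dorsal striatum, fire as pacemakers and are the cells most affected in Parkinson disease. They make dopamine from tyrosine by tyrosine hydroxylase (Th) and aromatic amino acid decarboxylase (Ddc), load it into vesicles with the vesicular monoamine transporter (Slc18a2) and take it back up with the dopamine transporter (Slc6a3). They are a small part of the cells in the dissected tissue, which also holds astrocytes, oligodendrocytes, microglia, vessels and GABAergic neurons. The comparison asks which transcripts were more or less frequent on tagged ribosomes than in the cleared tissue lysate.

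The stretches of DNA just before the genes of this pathway are shown first, since the genes are the ones by which the capture is judged. Each is the 250 bases upstream of a RefSeq transcription start on GRCm38.p6, read 5′ to 3′ on the gene's strand, with any searched motif in capitals. The Th window lies at chr7:142899996-142900245 on the minus strand, and its capitals are a full cAMP response element, TGACGTCA, whose first base is 45 bases before the start. The window of the first of the listed Ddc starts lies at chr11:11898145-11898394 on the minus strand, and its capitals are the reverse complement of AAAGGTCA, the monomer site of the Nr4a nuclear receptors, beginning 73 bases before the start. The window of the other listed Ddc start, at chr11:11890409-11890658, held none of the motifs searched and is not shown. Which start was used in these cells was not tested. The Slc6a3 window lies at chr13:73536497-73536746 on the plus strand and held none of the motifs searched.

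Th: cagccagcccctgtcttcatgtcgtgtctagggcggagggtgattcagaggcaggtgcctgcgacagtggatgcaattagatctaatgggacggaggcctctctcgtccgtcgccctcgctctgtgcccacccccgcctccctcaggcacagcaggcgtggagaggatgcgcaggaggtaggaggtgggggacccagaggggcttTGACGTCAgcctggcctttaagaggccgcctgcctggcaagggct

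Ddc: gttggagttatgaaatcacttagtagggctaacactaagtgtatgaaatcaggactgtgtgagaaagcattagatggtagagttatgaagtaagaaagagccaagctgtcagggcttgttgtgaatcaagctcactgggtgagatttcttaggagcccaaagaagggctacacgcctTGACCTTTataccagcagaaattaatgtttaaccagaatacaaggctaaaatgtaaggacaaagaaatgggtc

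Slc6a3: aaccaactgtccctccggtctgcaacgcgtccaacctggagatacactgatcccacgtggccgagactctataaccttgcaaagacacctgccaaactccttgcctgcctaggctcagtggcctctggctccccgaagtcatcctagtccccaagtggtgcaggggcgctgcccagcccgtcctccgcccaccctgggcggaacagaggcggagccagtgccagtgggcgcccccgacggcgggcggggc

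Dlk1: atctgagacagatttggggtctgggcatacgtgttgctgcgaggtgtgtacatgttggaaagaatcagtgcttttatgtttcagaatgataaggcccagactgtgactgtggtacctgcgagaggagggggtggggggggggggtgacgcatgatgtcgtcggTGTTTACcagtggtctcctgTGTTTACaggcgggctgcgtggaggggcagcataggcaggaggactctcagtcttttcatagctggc

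The last window, of the imprinted Notch-family ligand gene Dlk1, lies at chr12:109452573-109452822 on the plus strand, and its capitals are 2 copies of the forkhead-type motif TGTTTAC that begin 87 and 67 bases before the start. Dlk1 is shown because it is not a gene of dopamine synthesis and yet was among the genes that differed most clearly between IP and Input. Motifs were searched on both strands, and the 4 searched here were TGACGTCA, AAAGGTCA, TAATCC, which is bound by bicoid-type homeodomain proteins such as Pitx3, and TGTTTAC. None of them contains another. TGACGTCA stood in 1.55% of 32851 promoter windows in the RefSeq table and in 2.55% of those of the genes tested. It was in 3.57% of the windows of genes called higher in the IP and in 2.27% of those of genes called lower. AAAGGTCA was in 1.34% of all windows, in 0.889% of those of the genes tested and in 1.00% and 0.756% of those of genes called higher and lower. TGTTTAC stood in 3.17% of all windows and 2.09% of those of the genes tested, against 1.93% and 1.97%. TAATCC stood in 6.25% and 4.92%, against 5.97% and 4.27%. These are descriptions of letters in a fixed window, and genes with several listed starts count more than once.

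The 6 libraries held between 5809235 and 15762443 assigned reads, and levels are given as CPM, the usual read count relative to library size, here with libraries scaled by the trimmed mean of M-values (TMM). Pearson correlations of log2(CPM + 1) between libraries were 0.983 to 0.985 for the 3 pairs of Inputs, 0.944 to 0.946 for the 3 pairs of IPs and 0.897 to 0.908 for the 9 pairs of an IP with an Input, as a description over genes that share library depth. The 3 IPs differed more among themselves than the Inputs did, and IP 1 stood apart from IP 2 and IP 3 in several counts. It had 18394 genes with a read, against 25184 and 22453 in the other IPs and 20281 to 21983 in the Inputs, and mitochondrially encoded genes took 1.41% of its reads, against 3.41% and 3.74%. Its reads for the dopamine synthesis list were the most frequent and those for each glial list the least frequent of the 3 IPs, as given below.

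Among 14883 genes with enough reads to test, 3115 (20.9%) were called higher in the IP and 2916 (19.6%) lower in edgeR's quasi-likelihood test at a Benjamini-Hochberg adjusted p of 0.05. Here "higher", "lower", "rose" and "fell" are used of genes that passed this test, and all are relative to the library, since the amount of RNA in each fraction is not in the counts. Of the called genes, 1540 were higher and 1481 lower by more than 2-fold, and 74 and 62 by more than 8-fold. All 3 IPs lay above all 3 Inputs for 3839 genes (25.8%) and below them for 3775 (25.4%). The median log2 fold change over all genes tested was 0.02. The shares of 20.9% higher and 19.6% lower are the background for the counts of list members below. Leaving out IP 1 raised the calls to 3816 higher and 3500 lower, and leaving out Input 1, the deepest library, reduced them to 1942 and 1958. No called gene turned direction in either case.

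**Figure D1:**
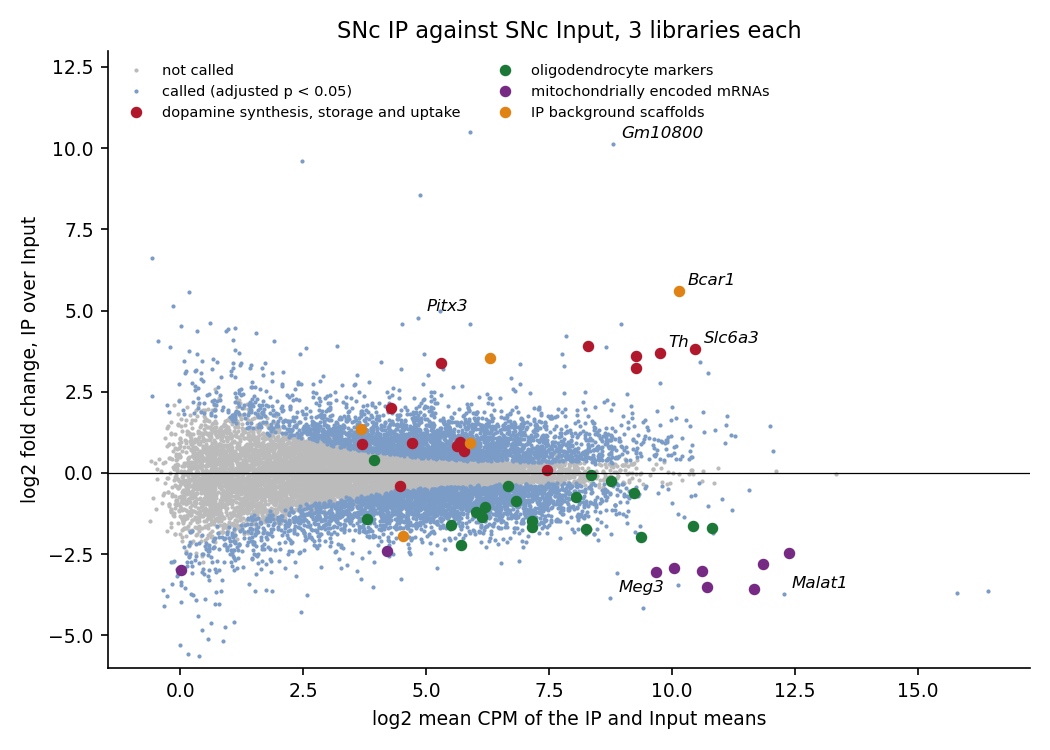
Log2 fold change of IP over Input (vertical axis) against the log2 mean CPM of the 2 fraction means (horizontal axis) for the 14883 genes tested, 1 point per gene, with called genes in blue, uncalled in grey and members of 4 lists in larger points. Dopamine synthesis genes reach 3.89 on the vertical axis, and the mitochondrially encoded mRNAs all lie below 0, between −2.42 and −3.56.

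Genes of dopamine synthesis, storage and uptake rose together. Of 15 genes on the list, 14 could be tested, 12 rose and none fell, against the 20.9% and 19.6% of all genes, and their median log2 fold change was 1.48. Gchfr, which regulates GTP cyclohydrolase, had 19 reads in IP 2 and none in the other 5 libraries and was not tested. Summed over the list, the level was 893, 911 and 959 CPM in the 3 Inputs and 9331, 6576 and 7179 CPM in the 3 IPs.

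Slc6a3 (chromosome 13, positions 73536747 to 73578672 of GRCm38 in GENCODE vM21, plus strand), whose locus drives Cre in these mice, stood at 181, 188 and 199.8 CPM in the Inputs and 2889, 2524 and 2591 CPM in the IPs. Th (chromosome 7, positions 142892752 to 142931128, minus strand), which makes the rate-limiting enzyme, stood at 121, 111 and 141 CPM in the Inputs and 2312, 1127 and 1404 CPM in the IPs. Every IP was above every Input for both genes, and IP 1 was the highest IP for both. The log2 fold changes (± SE) were 3.81 ± 0.12, adjusted p = 1.47e-09 for Slc6a3 and 3.69 ± 0.23, adjusted p = 3.12e-07 for Th. On a linear scale these are 14.1-fold and 12.9-fold. Here and below, the SE of a log2 fold change was derived from the test, as its absolute value over the square root of F. Slc18a2 stood at 84.5, 97.5 and 101 CPM in the Inputs and 1326, 992 and 1105 CPM in the IPs. Ddc stood at 114, 117 and 129.7 CPM in the Inputs and 1630.4, 785 and 959 CPM in the IPs. For both, too, the fractions did not overlap, with log2 fold changes of 3.60 ± 0.14 and 3.23 ± 0.23. Slc10a4, a vesicular protein of the bile acid transporter family found in monoamine and cholinergic neurons, was the list's largest difference at 3.89 ± 0.13, with 34.7, 42.7 and 43.4 CPM in the Inputs and 579.7, 620.0 and 575 CPM in the IPs.

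The tetrahydrobiopterin cofactor of Th is made by Gch1, Pts and Spr and recycled by Pcbd1 and Qdpr. Gch1, whose product catalyses the first step, rose by 3.40 ± 0.32, from 7.57, 6.28 and 6.62 CPM to 108, 53.6 and 55.2 CPM, with IP 1 at about the sum of the other IPs. Pcbd1 rose by 1.997 ± 0.23, and the later synthetic enzymes rose less, by 0.88 ± 0.26 for Pts and 0.92 ± 0.19 for Spr. Qdpr did not pass the test, with 174, 176 and 167 CPM in the Inputs and 161, 205 and 180.4 CPM in the IPs (log2 fold change 0.08 ± 0.12, adjusted p = 0.629). Among the enzymes that break dopamine down, Maoa (0.82 ± 0.17) rose and Maob, the form that is abundant in glia and serotonergic neurons, did not pass the test (−0.40 ± 0.28, adjusted p = 0.272). On the per-length scale, which allows levels of different genes to be compared, the IP means ran from 772 CPM per kilobase of exon for Slc6a3 and 683 for Th down to 252 for Ddc and 218 for Slc18a2.

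**Figure D2:**
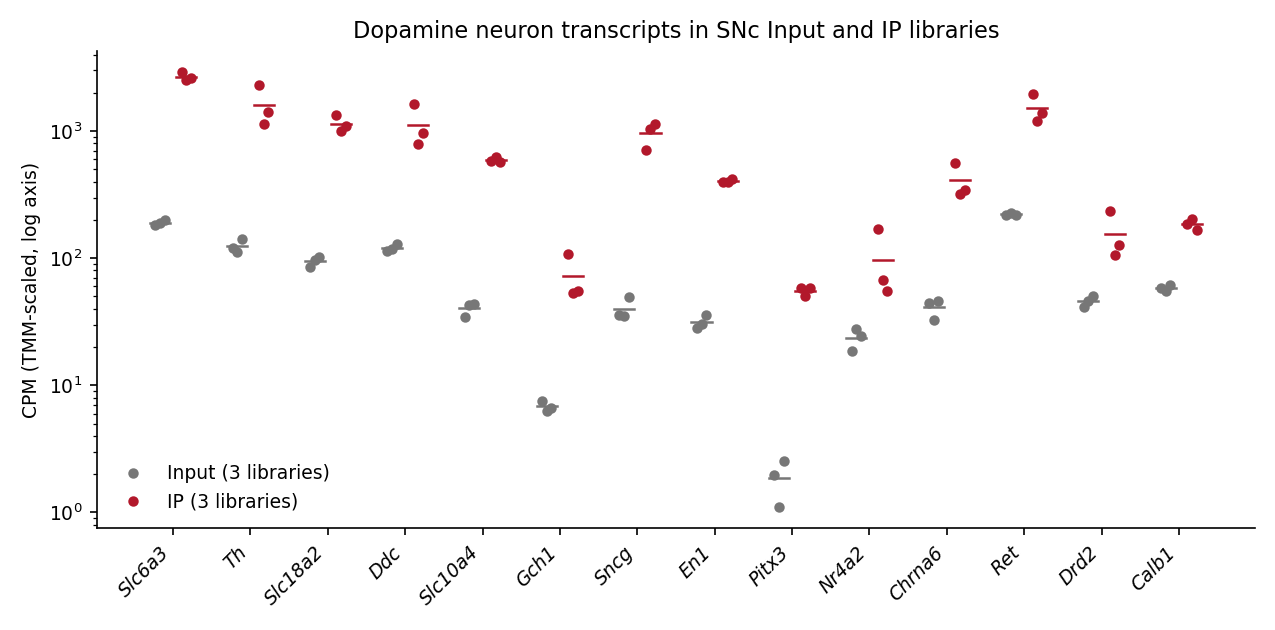
CPM (TMM-scaled, logarithmic vertical axis) of 14 dopamine neuron genes in each SNc library, with 3 Input points in grey, 3 IP points in red and a bar at each mean. The fractions are separate for every gene drawn, and Slc6a3 lies between 2524 and 2889 CPM in the IPs and between 181 and 199.8 CPM in the Inputs.

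Transcription factors that specify and maintain midbrain dopamine neurons were mostly higher in the IP. Of 20 on the list, 19 were tested, 12 rose, 3 fell and 4 did not pass the test, with a median log2 fold change of 1.40. Neurod6 had at most 24 reads in any library and was not tested. Pitx3, a homeodomain factor that dopamine neurons of the midbrain need to survive, showed the largest rise, from 1.98, 1.11 and 2.55 CPM in the Inputs to 58.6, 50.0 and 58.2 CPM in the IPs (4.78 ± 0.27, adjusted p = 1.27e-07). The Pitx3 gene overlaps Elovl3 on the other strand, and the strand setting of the counting is not given in the sources used here. En1, an engrailed factor kept on in adult dopamine neurons, stood at 28.4, 30.5 and 36.0 CPM in the Inputs and 397, 397 and 418 CPM in the IPs (3.68 ± 0.14, adjusted p = 1.78e-09). Its 3 IP values lay close together, unlike those of Th. The forkhead factors Foxa2 (3.41 ± 0.36) and Foxa1 (3.20 ± 0.30) and the LIM-homeodomain factors Lmx1a (2.40 ± 0.42) and Lmx1b (1.47 ± 0.37) rose, as did En2 (1.87 ± 0.27), Ebf3 (1.58 ± 0.35), Pbx3 (1.40 ± 0.21) and Sox6 (0.67 ± 0.25). Nr4a2 (Nurr1), the nuclear receptor that activates Th and Slc6a3, stood at 18.7, 27.9 and 24.3 CPM in the Inputs and 169, 66.9 and 55.1 CPM in the IPs. It rose by 2.12 ± 0.37, and IP 1 was more than the sum of IP 2 and IP 3. The 3 members that fell were the pan-neuronal factors Myt1l (−1.15 ± 0.11) and Tcf12 (−0.80 ± 0.17) and Zeb2 (−1.48 ± 0.16), which is also made in glia. Satb1 (0.67 ± 0.26, adjusted p = 0.0524), Bnc2 (0.16 ± 0.26), Nhlh2 (0.15 ± 0.63) and Otx2 (−0.46 ± 0.39) did not pass the test.

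Markers that divide dopamine neurons into subtypes were read next. The ventral tier of the SNc is marked by Anxa1, Aldh1a1 and Sox6, and 7 of 10 such genes rose, 1 fell and the median was 1.19. Under the alternative settings 5 to 7 rose. The rise was not particular to the SNc, since the enrichment differed from that in the VTA for none of the 10 (median difference 0.12). Compared with the SNr, it was lower for 5 and higher for none (median difference −0.90). Anxa1, a calcium-dependent phospholipid-binding protein, stood at 2.55, 3.69 and 1.43 CPM in the Inputs and 95.8, 54.9 and 74.0 CPM in the IPs (4.97 ± 0.32, adjusted p = 3.71e-07). Aldh1a1, a retinaldehyde dehydrogenase that also oxidises the dopamine aldehyde, stood at 347, 363 and 384 CPM in the Inputs and 3804, 2482 and 2921 CPM in the IPs (3.07 ± 0.16, adjusted p = 4.80e-08). Both were separate in all libraries, and Aldh1a7, a close paralog of Aldh1a1 with which reads could be shared, rose by 3.68 ± 0.32. Ndnf (2.45 ± 0.23), the potassium channel modifier Kcns3 (1.59 ± 0.21) and Igf1 (0.79 ± 0.23) also rose. The member that fell was Vcan (−1.03 ± 0.27), an extracellular matrix proteoglycan that oligodendrocyte precursors also make. Of 13 genes that mark the VTA and the dorsal tier, 11 were tested, 4 rose and 3 fell. These are 36.4% and 27.3% of those tested, against 20.9% and 19.6% of all genes. Those that rose were the tachykinin receptor Tacr3 (2.21 ± 0.22), the peptide genes Cck (1.94 ± 0.18) and Grp (1.43 ± 0.47) and the calcium-binding protein Calb1 (1.66 ± 0.13). Adcyap1 (−0.91 ± 0.23), Cbln4 (−1.40 ± 0.29) and Nfib (−1.62 ± 0.18) fell. Slc17a6, the glutamate transporter of neurons that co-release glutamate, stood at 219, 179 and 176 CPM in the Inputs and 92.6, 179 and 173 CPM in the IPs, and the fractions overlapped (−0.39 ± 0.20, adjusted p = 0.152).

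Receptors through which SNc dopamine neurons are driven or restrained did not move as one group. Of 37 receptor genes for dopamine, acetylcholine, peptides, GABA and glutamate, 31 were tested, 13 rose and 8 fell, with a median of 0.08. The shares were 41.9% and 25.8%, against 20.9% and 19.6% of all genes tested. The nicotinic subunits of the high-affinity receptor of dopamine neurons were the most raised: Chrna6 stood at 44.7, 32.5 and 46.1 CPM in the Inputs and 564, 318 and 346 CPM in the IPs (3.29 ± 0.22, adjusted p = 4.59e-07). Chrna5 stood at 2.83, 2.22 and 2.95 CPM and 28.3, 19.7 and 16.6 CPM in the same order. Neither overlapped between fractions, and Chrna5 (3.01 ± 0.35), Chrnb3 (2.91 ± 0.22), Chrna3 (2.75 ± 0.22) and Chrna4 (1.09 ± 0.22) rose, while the partner subunit Chrnb2 stayed at 0.18 ± 0.20 (adjusted p = 0.497). The neurotensin receptor Ntsr1 (2.74 ± 0.27), the guanylate cyclase Gucy2c (2.68 ± 0.37), the kappa opioid receptor Oprk1 (1.94 ± 0.33), the muscarinic receptor Chrm5 (1.62 ± 0.33) and the D2 autoreceptor Drd2 rose. Drd2 stood at 41.2, 46.4 and 50.2 CPM in the Inputs and 233, 106 and 127 CPM in the IPs (1.78 ± 0.25). Those that fell included the orexin receptor Hcrtr2 (−2.77 ± 0.57), the GABA-A subunit Gabrb1 (−1.15 ± 0.16), the glutamate receptor subunits Gria1 (−0.79 ± 0.11), Grin2b (−0.73 ± 0.12) and Grin3a (−1.19 ± 0.14) and the serotonin receptor Htr2c (−0.96 ± 0.21). Among 25 growth factor and guidance genes, 22 were tested, 5 rose and 9 fell. The share that rose, 22.7%, was near the 20.9% of all genes, and 40.9% fell, against 19.6%. Ret, the signalling receptor for GDNF, stood at 218, 226 and 220.1 CPM in the Inputs and 1943, 1205 and 1388 CPM in the IPs (2.77 ± 0.16, adjusted p = 1.87e-07). Its partner Gfra1 rose by 1.39 ± 0.23, as did the guidance receptors Robo2 (1.26 ± 0.15) and Dcc (0.83 ± 0.19) and the ephrin receptor Epha5 (0.95 ± 0.15), while the neurturin co-receptor Gfra2 (−0.96 ± 0.18) and the neurotrophin receptors Ntrk2 (−0.79 ± 0.10) and Ntrk3 (−0.94 ± 0.14) fell. The Hedgehog receptor gene Ptch1, which glia express, fell the most on the list, with 186, 215 and 198 CPM in the Inputs and 42.7, 48.2 and 49.2 CPM in the IPs (−2.10 ± 0.13, adjusted p = 2.93e-07).

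Ion channels and calcium-handling genes were divided, with 12 of 45 higher, 16 lower and a median of −0.07. The share that was higher, 26.7%, was not far from the 20.9% of all genes tested, and 35.6% were lower, against 19.6%. Kcnj6 (GIRK2), the potassium channel opened by D2 receptors, rose by 1.07 ± 0.21, and Kcnn3 (SK3), which shapes the after-hyperpolarisation of these neurons, by 1.05 ± 0.25. Calb1 (1.66 ± 0.13), Calb2 (1.46 ± 0.13), the calcium pump Atp2a3 (1.51 ± 0.36) and the calcium channel subunit Cacna2d3 (1.36 ± 0.13) also rose. The L-type channel Cacna1d (Cav1.3), studied as a source of the calcium load of SNc pacemaking, was lower in the IP than in the Input. It stood at 38.2, 31.2 and 37.1 CPM in the Inputs and 27.8, 16.9 and 21.6 CPM in the IPs (−0.68 ± 0.21). Others that fell included Kcnc1 (−1.33 ± 0.13), Pvalb (−1.14 ± 0.25) and Hcn2 (−1.17 ± 0.11).

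Genes of vesicle release and secretory granules moved in both directions, 25 of 49 up and 11 down (median 0.40). The share that fell, 22.4%, was near the 19.6% of all genes tested, and 51.0% rose, against 20.9%. Sncg, a synuclein of presynaptic terminals, rose the most on the list and stood at 35.6, 35.3 and 49.2 CPM in the Inputs and 713, 1041 and 1129 CPM in the IPs (4.58 ± 0.20, adjusted p = 9.51e-09). Its IPs were all above the Inputs and IP 1 was the lowest of the IPs. Cplx1 (1.75 ± 0.13), a complexin that clamps fusion, the vesicle glycoprotein Sv2c (1.69 ± 0.30), the calcium sensor Syt1 (1.27 ± 0.15), the fusion proteins Snap25 (0.92 ± 0.11) and Vamp2 (1.06 ± 0.11), Cadps2 (1.95 ± 0.27), which primes dense-core vesicles, and the granule proteins Scg2 (1.69 ± 0.16) and Chgb (1.17 ± 0.11) rose. Those that fell included the large active zone scaffolds Pclo (−1.82 ± 0.12) and Bsn (−1.04 ± 0.16) with Rims2 (−1.001 ± 0.13) and Unc13c (−1.27 ± 0.15). Pclo stood at 504, 459 and 474 CPM in the Inputs and 149, 122 and 136 CPM in the IPs, with no overlap. Not all scaffold genes fell, since Erc2 rose by 1.10 ± 0.29 and Rims1 was at 0.20 ± 0.16 (adjusted p = 0.356).

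Of 19 genes linked to inherited or risk forms of Parkinson disease, 8 rose, none fell and the median was 0.26. Those that rose included Park7 (DJ-1, 1.98 ± 0.16), Uchl1 (1.92 ± 0.11), Chchd2 (1.69 ± 0.16), Vps35 (1.06 ± 0.12), Tmem175 (0.97 ± 0.22) and Dnajc6 (0.84 ± 0.15). Pink1 stood at 346, 338 and 362 CPM in the Inputs and 344, 342 and 382 CPM in the IPs. Lrrk2 stood at 29.7, 27.7 and 30.6 CPM in the Inputs and 21.2, 27.7 and 23.2 CPM in the IPs. Both overlapped between fractions, with log2 fold changes of 0.03 ± 0.11 and −0.30 ± 0.19, and neither passed the test.

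Of 35 cytoskeletal genes, 14 rose and 8 fell (median 0.14). The share that fell, 22.9%, was near the 19.6% of all genes tested, and 40% rose, against 20.9%. Growth-associated Gap43 (2.07 ± 0.12), the stathmins Stmn1 (1.98 ± 0.15), Stmn3 (1.44 ± 0.11) and Stmn2 (1.26 ± 0.12) and the intermediate filament Prph (1.94 ± 0.43) rose. Those that fell were mainly large scaffolds and motors, Sptbn1 (−1.16 ± 0.15), Ank3 (−0.99 ± 0.15), Ank2 (−0.40 ± 0.13), Kif5a (−0.79 ± 0.11), Kif5b (−0.74 ± 0.11), Map2 (−0.67 ± 0.11) and Map1a (−0.54 ± 0.11), with the neurofilament Nefl (−0.71 ± 0.12). In the UMI libraries, 6 of the 35 cytoskeletal genes were higher and 5 lower in Cre+ mice, against 2.29% and 2.99% of all genes tested there. In Cre- mice 11 were higher and 6 lower, against 3.81% and 2.23%. The difference between genotypes was called for 2 towards Cre+ and 8 towards Cre-, against 1.15% and 1.07%. Of 19 neuropeptide genes, 14 were tested in the full-length libraries, and 21.4% rose and 14.3% fell, against 20.9% and 19.6% of all genes tested. Cck, Cartpt (1.66 ± 0.37) and Grp rose, and Sst (−0.96 ± 0.26) and Adcyap1 fell, and between 1 and 4 fell with single libraries left out.

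The nuclear-encoded subunits of the respiratory chain rose almost without exception. Of 59, 58 were tested and 56 rose, by a median log2 fold change of 1.09 and at most 1.87 (Ndufa2, of complex I), and 54 to 56 did so under every alternative setting tried. Cox6b1, of complex IV, stood at 41.2, 48.9 and 45.5 CPM in the Inputs and 110.5, 181 and 198 CPM in the IPs. Sdha, of complex II, stood at 385, 373 and 392 CPM in the Inputs and 514, 471 and 483 CPM in the IPs. Both were separate between fractions, and the rise was 1.85 ± 0.20 for Cox6b1 and 0.35 ± 0.10 for Sdha. The members that did not pass the test were Cox7c (0.45 ± 0.34) and Cycs (0.17 ± 0.24), which has processed pseudogenes that share reads. The entry named Atp5o had no read in any of the 6 libraries. A second entry, Atp5o.1, was not on the list and did have reads, at an average log2 CPM of 7.06 in the fit of SNc and SNr libraries. Of 78 cytosolic ribosomal protein genes, 76 were tested, 31 rose and none fell, with a median of 0.54, but the count was sensitive to single libraries, at 13 without Input 1 and 40 without IP 1. Only uniquely mapped reads were counted by the authors, and this family has many near-identical pseudogenes. Rpl24 had at most 2 reads and Rpl17 at most 8 in any library. In the UMI libraries the family's median was −0.24 in Cre+ mice, with none of 78 called higher and 10 lower, against 2.29% and 2.99% of all genes tested there. The respiratory chain was at 0.44 in Cre+ mice with 10 of 59 higher and none lower, and at 0.02 in Cre- mice with 15 higher and 1 lower, against 3.81% and 2.23% of all genes. The difference between genotypes was called for 9 of them towards Cre+ and 1 towards Cre-, against 1.15% and 1.07% of all genes.

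**Figure D3:**
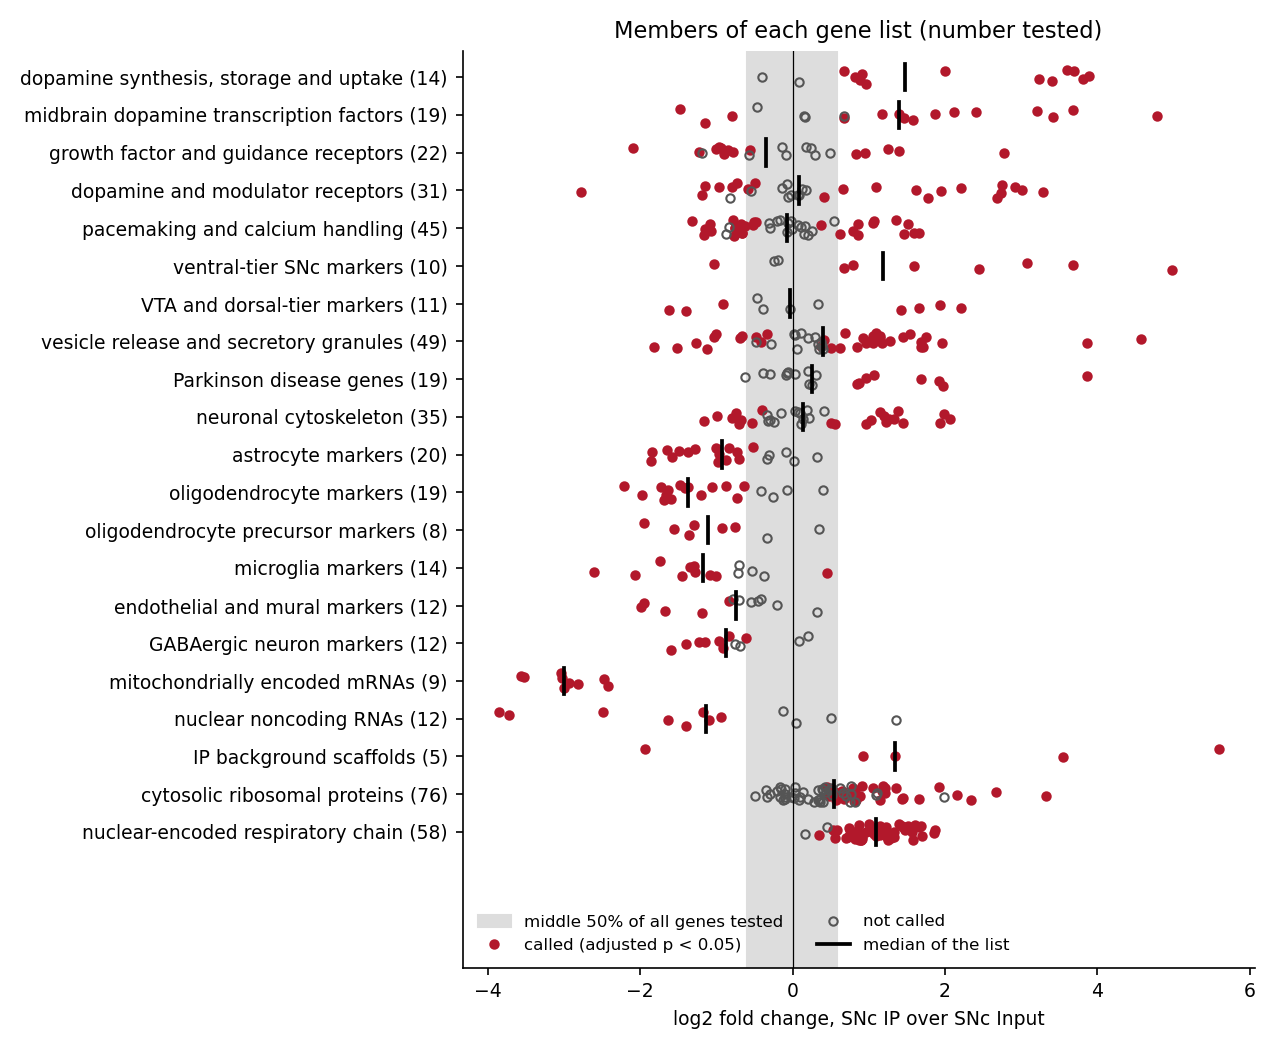
Log2 fold change of SNc IP over Input (horizontal axis) for the tested members of 21 gene lists (1 row per list, number tested in brackets), with called genes filled, uncalled genes open, a bar at each median and a grey band over the middle 50% of all genes tested. Dopamine synthesis (median 1.48) and respiratory chain genes (1.09) lie mostly to the right of the band, and oligodendrocyte (−1.37) and mitochondrially encoded genes (−2.99) to its left.

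Markers of other cells were less frequent in the IP but not absent from it. For the counts that follow, 19.6% of all genes tested were lower. Astrocyte markers fell in 15 of 20 genes and rose in none (median −0.92), oligodendrocyte markers in 15 of 19 (median −1.37), markers of oligodendrocyte precursors in 6 of 8, of microglia in 9 of 14 (1 rose; 4 to 5 fell when any 1 Input was left out), of endothelial and mural cells in 5 of 12 tested and of GABAergic neurons in 8 of 12 (median −0.88). The myelin gene Mbp stood at 2036, 2271 and 1982 CPM in the Inputs and 493, 802 and 731 CPM in the IPs. Aqp4, the water channel of astrocyte endfeet, stood at 211, 244 and 250.05 CPM in the Inputs and 49.0, 86.6 and 105 CPM in the IPs. In both the fractions were separate and IP 1 was the lowest library, and the log2 fold changes were −1.64 ± 0.16 and −1.58 ± 0.21. The summed oligodendrocyte markers were at 9414, 9895 and 8873 CPM in the Inputs and 2826, 4355 and 4327 CPM in the IPs. The summed astrocyte markers were at 9545, 9405 and 9814 CPM against 4160, 6211 and 6314 CPM. Aldh1l1, an astrocyte enzyme, stood at 60.6, 67.2 and 65.0 CPM in the Inputs and 41.9, 73.7 and 67.8 CPM in the IPs and did not pass the test (−0.08 ± 0.19), and nor did Glul, Aldoc, Clu and Acsbg1. Of the microglial markers, the purinergic receptor gene P2ry12 fell (−1.45 ± 0.33). IP and Input are fractions of lysate from the same region, so these values do not count the cells of any type.

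GABAergic markers differed among themselves. Gad2, 1 of the enzymes that make GABA, stood at 487, 456 and 506 CPM in the Inputs and 194, 307 and 272 CPM in the IPs. Gad1, the other, stood at 463, 443 and 534 CPM in the Inputs and 412, 600.1 and 518 CPM in the IPs. Gad2 was lower in every IP (−0.91 ± 0.15, adjusted p = 0.000386), whereas Gad1 overlapped (0.09 ± 0.14, adjusted p = 0.659), and the vesicular transporter Slc32a1 (−0.84 ± 0.15) and the fate factors Tal1 (−1.40 ± 0.31) and Gata3 (−1.59 ± 0.33) fell. Tph2, the enzyme of serotonin synthesis, was called higher from low levels, 0.849, 2.40 and 1.32 CPM in the Inputs and 2.13, 14.2 and 12.1 CPM in the IPs (2.73 ± 0.74, adjusted p = 0.00996). Of other serotonergic markers, Fev had no read in the IPs and Slc6a4 had 0, 7 and 30 reads in IPs 1 to 3, and the noradrenergic enzyme Dbh had 0, 16 and 9 reads there and none in the Inputs. The part of other monoamine neurons in the IPs was not tested. Of the other lists, no erythrocyte or choroid plexus marker passed the test (6 tested), and Tph2 was the only one of 8 tested markers of other transmitters to do so, and none rose without Input 1 or without IP 2. As shares of all reads, the astrocyte, oligodendrocyte, precursor and endothelial lists were lower in all 3 IPs than in all 3 Inputs in a two-sided exact permutation test over libraries, at p = 0.1, the smallest that 3 against 3 allows. Microglia (p = 0.3) and GABAergic markers (p = 0.5) overlapped when mitochondrially encoded reads were in the total and were separate when they were left out (p = 0.1).

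RNA of mitochondria, which is not read by cytosolic ribosomes, had the lowest median of the 25 lists. Mitochondrially encoded genes took 26.3%, 28.1% and 26.1% of reads in the Inputs and 1.41%, 3.41% and 3.74% in the IPs, and most of these reads came from the 2 mitochondrial ribosomal RNAs. Of 13 mitochondrial mRNAs, 9 were tested and all 9 fell, by a median of −2.99. The cytochrome oxidase subunit mt-Co1 stood at 8930.0, 9466 and 8678 CPM in the Inputs and 838, 1906 and 2154 CPM in the IPs (−2.47 ± 0.26, adjusted p = 1.19e-05). The other mitochondrial mRNAs, mt-Co2, mt-Co3, mt-Nd4l and mt-Atp8, had at most 28 reads in any library. Of 12 nuclear noncoding RNAs, 8 fell and none rose. Malat1, a nuclear-retained RNA, stood at 9637, 9386 and 8603 CPM in the Inputs and 393, 797 and 906 CPM in the IPs (−3.72 ± 0.25, adjusted p = 4.59e-07). Meg3 (chromosome 12, positions 109541001 to 109571726, plus strand), the maternally expressed RNA next to the paternally expressed Dlk1, stood at 872, 734 and 811 CPM in the Inputs and 41.4, 71.6 and 55.1 CPM in the IPs (−3.86 ± 0.18, adjusted p = 1.55e-08). All Inputs were far above all IPs for these RNAs, and IP 1 was the lowest library. Dlk1, on the same strand at chromosome 12, positions 109452823 to 109463336, had the opposite difference, with 259.7, 259 and 263 CPM in the Inputs and 3042, 2495 and 2879.7 CPM in the IPs (3.43 ± 0.12, adjusted p = 1.47e-09). Among immediate early genes, 1 of 12 tested, Egr1 (−1.70 ± 0.22), passed the test.

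By the smallest p among genes at or above the median level, the other genes that led the rise were Bcar1, Tagln3 and CT010467.2, of which the last had no entry in the annotation used, and those that led the fall were Cdr1os, Shank1, Mllt6, Meg3, Qk, Ptch1, Zcchc24, Hipk2, Pclo, Tmcc2, Malat1 and Shank3. The transcripts of the postsynaptic scaffolds Shank1 (−3.09 ± 0.13) and Shank3 (−2.70 ± 0.18) are known from dendrites of other neurons. Cdr1os (−4.16 ± 0.16) overlaps Cdr1 on the other strand, so the strand of origin could not be told.

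Length moved with the direction of the difference. The median exon length was 3113 bases for genes called higher, 6236 for those called lower and 4336 for all genes tested. Among the shortest quintile of genes (56 to 2196 bases), 34.4% were called higher and 6.55% lower. In the longest quintile (7596 bases or more), 11.1% were higher and 36.99% lower, and the median log2 fold change went from 0.56 to −0.33 between these quintiles. Short respiratory chain and ribosomal protein genes and long active zone, ankyrin and spectrin genes lie at the ends of this range, and the part of length in their differences was not tested. Processed pseudogenes, whose reads can come from their parent genes, were 281 of the 3113 annotated genes called higher and 30 of the 2916 called lower. They were 613 of the 8843 not called and 924 of all 14872.

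On the per-length scale, small RNA genes of the annotation (Gm23935, Gm24270, Gm24187, Mir6236 and Rn7sk), the mitochondrial ribosomal RNAs and the pseudogene Gm11223 had the highest means in the IPs, and of these only Mir6236 (1.65 ± 0.32) and Gm11223 (2.11 ± 0.14) rose. The next was Cplx1 at 1570.0 CPM per kilobase, against 465 in the Inputs. The chaperone Hsp90ab1 (1151), Sncg (1128), the sodium pump subunit Atp1b1 (1066), Bex2 (1023), the calcium sensor Vsnl1 (845) and the ubiquitin hydrolase Uchl1 (805) followed. For Sncg the Input level was 47.0 CPM per kilobase, and for Atp1b1 it was 476.

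A separate question was how much of the difference needed the tag, since RNA can also stick to the antibody or beads. The full-length libraries held no Cre- mice, and the UMI libraries, with 28772 to 380689 UMIs each, gave a less deep view of the same contrast. Of 11656 genes tested there, 267 (2.29%) were higher and 348 (2.99%) lower in the Cre+ IP, and 444 (3.81%) were higher and 260 (2.23%) lower in the Cre- IP. The difference between the genotypes (genotype:fraction) was called for 134 genes (1.15%) in the direction of more enrichment in Cre+ mice and 125 (1.07%) in the other. In simulated data, changes were given only to genes at or above the median level. In the full-length SNc contrast, 11.2% of the calls were false, and 2-fold changes were called for 90% of the changed genes. They were called for 10%, 19% and 3% in the Cre+, Cre- and genotype:fraction UMI contrasts. For 4-fold changes these values were 100%, 55%, 67% and 26%, so a gene not called in the UMI libraries was not shown to be unchanged.

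Slc6a3 averaged 144 ± 55.6 CPM (SD, n = 4) in Cre+ Inputs and 1280 ± 109 CPM in Cre+ IPs. In Cre- mice it averaged 185 ± 62.3 CPM (n = 6) in Inputs and 166 ± 70.4 CPM in IPs. The rise was thus seen with the tag (3.17 ± 0.29) and not without it (−0.14 ± 0.28), and the difference of 3.31 ± 0.40 passed the test (adjusted p = 4.91e-10). Sncg (difference 4.30 ± 0.52), Slc10a4 (4.42 ± 0.67), Dlk1 (3.54 ± 0.36) and Slc18a2 (3.09 ± 0.46) were likewise called higher in the Cre+ IP, not called in the Cre- IP and different between genotypes. En1 rose by 3.43 ± 0.47 in Cre+ mice and was called lower in the Cre- IP (−3.07 ± 0.93, adjusted p = 0.0280), where it had 1 UMI in all 6 libraries together, so its difference of 6.50 ± 0.97 holds both. Th rose in both genotypes, by 3.22 ± 0.30 in Cre+ and by 1.61 ± 0.28 in Cre- mice (adjusted p = 7.67e-06), with a difference of 1.61 ± 0.41 (adjusted p = 0.0120). Malat1 fell by 3.46 on the log2 scale in Cre+ and stood at −0.61 ± 0.22 in Cre- mice (adjusted p = 0.0740). Mitochondrially encoded mRNAs had a median of −3.27 in Cre+ and −0.58 in Cre- mice, and 9 of 13 differed between genotypes.

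Bcar1 behaved in the opposite way. This adaptor of focal adhesions (chromosome 8, positions 111710474 to 111743809, minus strand) showed a clear rise in the full-length libraries, with 48.3, 42.7 and 47.0 CPM in the Inputs and 2478, 1613 and 2614 CPM in the IPs (5.59 ± 0.20, adjusted p = 1.47e-09). In the UMI libraries it averaged 77.4 ± 67.5 CPM in Cre- Inputs and 6668 ± 2261 CPM in Cre- IPs, a log2 fold change of 6.79 ± 0.29, against 3.81 ± 0.38 in Cre+ mice. Of 6 genes listed as scaffolds of this kind, 5 were tested in the full-length libraries, 4 rose (2 without Input 3) and Sh3pxd2b fell (−1.94 ± 0.22), which was at 0.02 ± 1.18 in the Cre- IP. The Bcar1 relatives Nedd9 and Efs and the scaffold Sh3pxd2a also rose both in the full-length IP (3.55 ± 0.37, 1.34 ± 0.35 and 0.93 ± 0.31) and in the Cre- IP (5.76, 5.55 and 4.53). Acaca rose in the Cre- IP by 5.04 ± 0.37 and stood at 0.01 ± 0.88 in the Cre+ UMI IP, and Gm10800 rose in the Cre- IP by 5.54 ± 0.41. In the full-length libraries Gm10800 stood at 0.212, 1.48 and 1.22 CPM in the Inputs and 12.9, 1612 and 1053 CPM in the IPs, so IP 1 was far below IP 2 and IP 3 for it.

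Of the 3115 genes called higher in the full-length IP, 2728 were also tested in the UMI libraries. Of these, 235 (8.61%) were called higher in the Cre+ UMI IP and 2 lower, against 2.34% higher among all 10745 genes tested in both, and 225 (8.25%) were called higher in the Cre- IP and 50 lower, against 3.44% higher in the Cre- IP among all of these. The genotype:fraction difference was called for 126 of them (4.62%) towards Cre+ and for 22 (0.806%) towards Cre-, against 1.23% and 1.05%. Scaling the UMI counts by TMMwsp instead of size factors gave 114 higher and 136 lower in the Cre- IP and 186 and 10 for the difference. Of the 119 that were higher by more than 4-fold in the full-length IP, 56 were higher in the Cre+ UMI IP, 12 in the Cre- IP, and 31 were more enriched in Cre+ mice. Of the 2445 called lower, 263 (10.8%) were lower and none higher in the Cre+ UMI IP, and 141 (5.77%) were lower and 8 higher in the Cre- IP, against 3.09% lower in Cre+ and 2.37% lower in Cre- mice among all genes tested in both. The genotype:fraction difference was called for 44 of them (1.7996%) towards Cre- and none towards Cre+, against 1.05% and 1.23%.

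**Figure D4:**
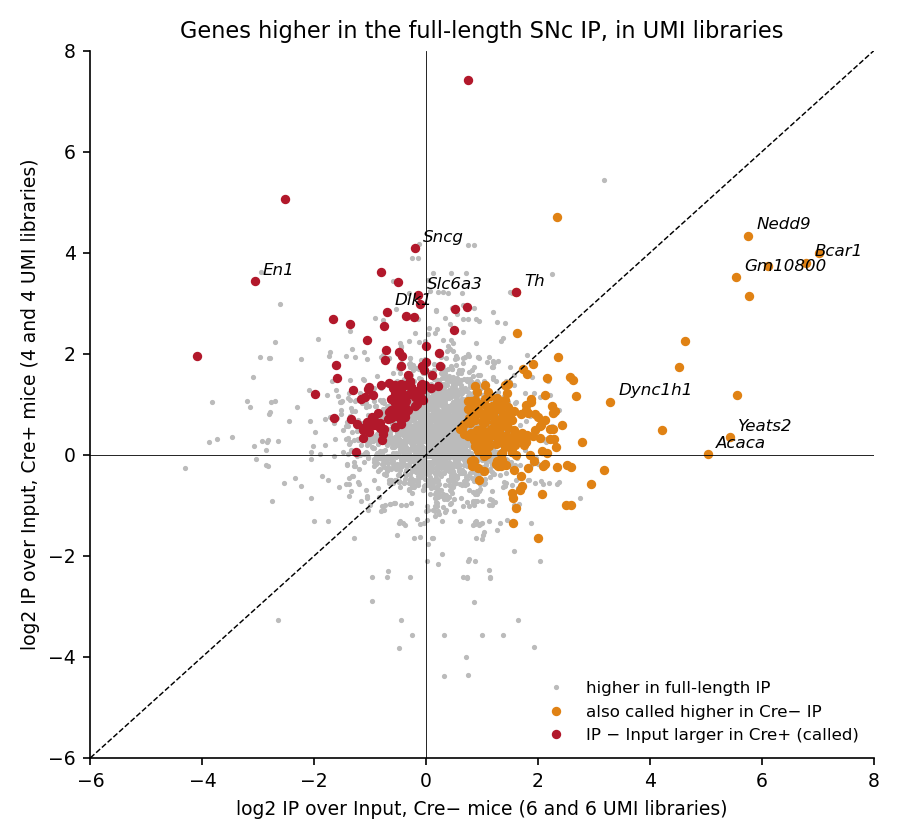
Log2 fold change of IP over Input in UMI libraries of Cre- mice (horizontal axis) and Cre+ mice (vertical axis) for the 2728 genes called higher in the full-length SNc IP and tested there, with genes also called higher in the Cre- IP in orange and genes called more enriched in Cre+ mice in red. On the dashed line both genotypes are equal. Slc6a3 lies at −0.14 and 3.17, and Bcar1 at 6.79 and 3.81.

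The same contrast in the neighbouring regions was set against that of the SNc, to find which differences depended on the region. The enrichment was higher in the SNc than in the VTA for 1240 of 15944 genes (7.78%) and lower for 584 (3.66%), and higher than in the SNr for 413 of 16274 (2.54%) and lower for 429 (2.64%). These counts depended on single libraries of each group. Without SNc IP 1 they were 2410 and 1622 against the VTA and 979 and 860 against the SNr, whereas without SNc Input 1 they were 666 and 346 and 126 and 142, and without VTA Input 2 they were 650 and 346 against the VTA. Slc6a3 rose by 3.81 in the SNc, 3.30 in the VTA and 5.51 in the SNr, and the SNc differed from both (adjusted p = 0.0226 and 0.00186). Dopamine synthesis genes were more enriched in the SNc than in the VTA for 3 of 14 tested (1 to 4 under the alternatives). None was less enriched (0 to 2, with 2 without SNc IP 1). Against the SNr 2 were more (0 to 2) and 5 less enriched (4 to 6).

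Glial markers were depleted less in the SNc IP than in the VTA IP, in 19 of 20 astrocyte genes (median difference 2.16) and in all 19 oligodendrocyte genes (median 2.09). Under the alternatives tried these counts ran from 18 to 19 and from 16 to 19. The myelin enzyme gene Cnp was at −0.26 in the SNc, −2.47 in the VTA and −1.12 in the SNr, and differed from the VTA by 2.19 ± 0.15 (adjusted p = 3.85e-08). The GABAergic list differed in the same direction for 10 of 12 genes, and mitochondrial mRNAs for 6 of 10 (3 to 8 under the alternatives). Against the SNr, 13 of 19 oligodendrocyte and 2 of 20 astrocyte genes were depleted less in the SNc and 1 astrocyte gene was depleted more. These counts were less stable, at 4 to 15 oligodendrocyte and 0 to 10 astrocyte genes under the alternatives, with the highest of both without SNc IP 1. Cartpt was called in opposite directions, higher by 1.66 in the SNc IP and lower by 3.39 on the log2 scale in the VTA IP, a difference of 5.03 ± 0.37. Calb1 rose by 1.66 in the SNc and by 3.18 in the VTA and stood at −0.15 in the SNr, and both differences passed the test (−1.55 ± 0.18 and 1.82 ± 0.25). Cacna1g, a T-type calcium channel, was at −0.07 in the SNc, 0.02 in the VTA and 2.92 in the SNr, a difference from the SNr of −2.97 ± 0.25. Each value is relative to the Input of its own region, and the part of differences between the Inputs was not tested.

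**Figure D5:**
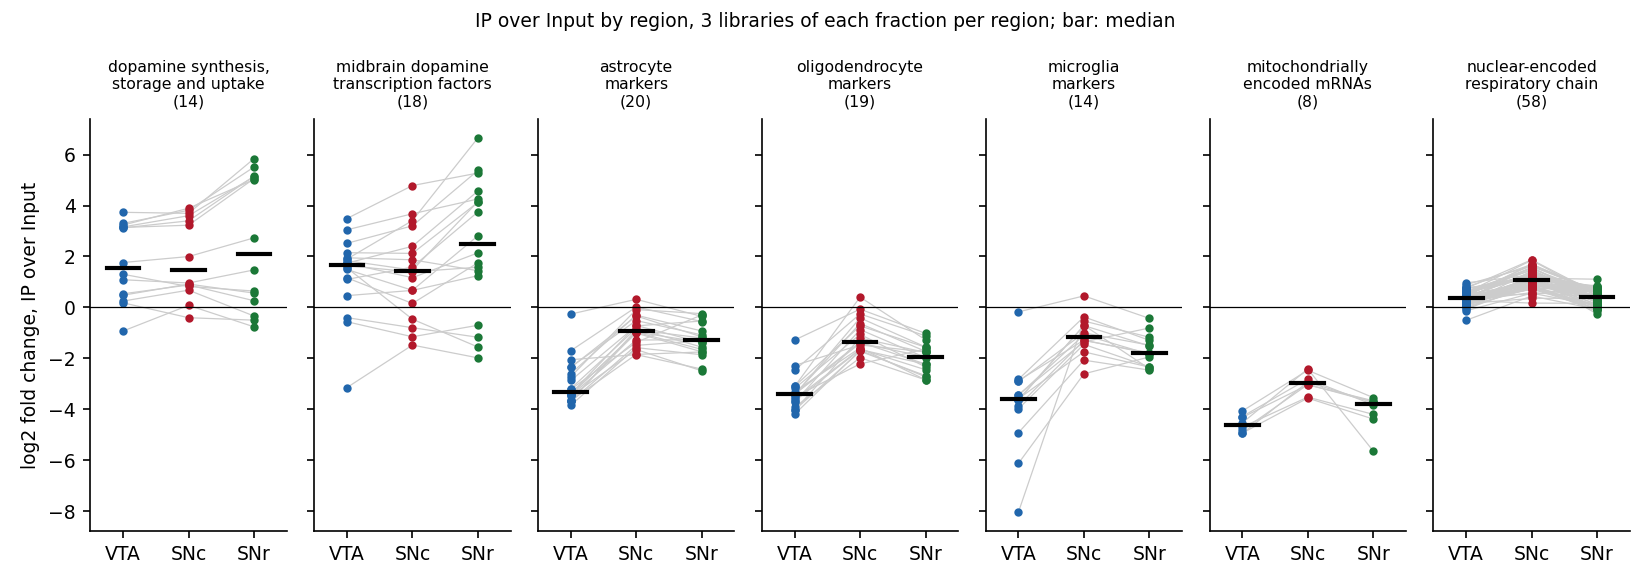
Log2 fold change of IP over Input (vertical axis) in the VTA, SNc and SNr for the genes of 7 lists tested in all 3 regions, 1 point per gene, joined by lines, with a bar at each median. The median difference between SNc and VTA is 2.16 for astrocyte and 2.09 for oligodendrocyte genes, which lie nearer 0 in the SNc.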

How the data were processed

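The members and gene lists were chosen with earlier results of these data known. Full-length libraries were made from total RNA with a stranded low-input total RNA kit (SMARTer Pico v3), and the authors removed ribosomal reads with Bowtie2, aligned with STAR 2.6.7a to GRCm38.p6 (GENCODE M25) and deposited counts of uniquely mapped reads per gene from featureCounts 1.6. UMIs were trimmed off there, so reads are not independent molecules. For the 3′ libraries the deposited counts are collapsed UMIs, and 5 rows that name no gene (10 UMIs) and 356 columns of other samples were left out. Depths are in the report.

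SNc IP and Input counts were compared with edgeR 4.0.16 (R 4.3.3) by its quasi-likelihood test, fraction as the single term, filterByExpr and TMM, and Benjamini-Hochberg adjustment over all 14883 genes. Region differences used interaction contrasts over 12 libraries, and UMI contrasts used genes with at least 10 UMIs and DESeq2 1.42.0 size factors. Shares were compared by exact permutation. Scripts were tested on simulated data, where the share of false calls was above the nominal level for the full-length contrasts and below it for the UMI contrasts. CPM per kilobase used exon lengths of GENCODE vM21, which had 14872 of the genes tested, and promoters came from RefSeq. Named genes were list members, the 12 genes per direction with the smallest p at or above the median level, up to 4 per list and per region or genotype difference, and the 10 highest per length. Some genes that the rule names are not reported here. Alternatives were the DESeq2 Wald test used by the authors, other scalings, filters and fits and leaving out each library.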

Additional observations from a re-analysis of the deposited data

Results flagged for a closer look

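The IP to Input difference in the SNc differed from that in the VTA, by a test of the difference itself, for 1240 genes in the higher and 584 in the lower direction. Differences (SNc minus VTA, log2) with the smallest p were 2.19 for Cnp and 2.83 for Cldn11, both of myelin, 2.51 for Car2, a carbonic anhydrase of oligodendrocytes, and 5.03 for the peptide gene Cartpt. In the other direction they were −1.55 for Calb1, −1.49 for Mcc, −1.21 for Ssbp3 and −1.47 for Neto2.

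Against the SNr, the difference was called for 413 and 429 genes. Those with the smallest p were 1.22 for the kinesin Kif5a, 1.64 for Tmsb4x, 1.82 for Calb1 and 1.62 for Nnat, and −2.97 for Cacna1g, −3.09 for Ntng1, −2.96 for Acaca and −2.66 for the glycine receptor subunit Glra3. Acaca rose in the SNr IP by 3.65 and in the SNc IP by 0.67, and it is also among the genes that rose in the Cre- UMI IP.

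In the UMI libraries the difference between Cre+ and Cre- mice was called for 134 and 125 genes. It was 3.54 for Dlk1, 4.30 for Sncg, 3.31 for Slc6a3 and 2.58 for Gap43, and −3.00 for mt-Nd5, −2.87 for mt-Nd4, −2.85 for Malat1 and −2.39 for mt-Nd1.

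1 Cre- Input UMI library was far deeper than the other 5 of its group, at 380689 UMIs. Depth was checked in the 4 UMI groups of SNc libraries, and chance flags about 1 in 20 such groups.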

How the results depend on the processing

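With 1 library left out at a time, for SNc IP against Input, genes called higher ran from 1942 (without Input 1) to 3816 (without IP 1). For the difference from the VTA, genes higher ran from 650 to 2410 and lower from 288 to 1622, and for the difference from the SNr from 126 to 979 and from 142 to 860, with the highest values in each case without SNc IP 1. Genes called lower in the Cre+ UMI IP ran from 230 (without Cre+ IP replicate 2) to 305, against 348 with all libraries. The cause was not tested.

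Against the SNr, the DESeq2 Wald test gave 518 genes higher and 711 lower and size factors in edgeR gave 347 and 535, against 413 and 429 with TMM, so the split depended on scaling. TMMwsp scaling of the UMI counts gave 228 genes higher and 670 lower in the Cre- IP and 205 and 55 for the difference between genotypes, outside the range with single Cre+ libraries left out, and it moved the median of all genes in the Cre- contrast from 0.05 to −0.29. For SNc IP against Input, DESeq2 gave 3048 and 2871, and the fit of all 18 full-length libraries 3530 and 3165.

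Genes that turned direction had not passed the test. With libraries left out in turn, log2 fold changes ran from −0.33 to 0.38 for Bnc2, −0.10 to 0.70 for Crym, −0.91 to 0.25 for Gm23935, −0.057 to 0.53 for Gm24270, −0.55 to 0.085 for Grin2c, −0.63 to 0.23 for Lpl, −0.57 to 0.77 for Nhlh2 and −0.021 to 0.15 for Qdpr. Lpl was also at 0.0043 with DESeq2 and 0.014 with the legacy quasi-likelihood method. The share of markers of other transmitters was 0.00023 percentage points higher in the IP among all reads and at −0.0068 without mitochondrially encoded genes. Of the remaining values for the 202 named genes, 2320 kept their direction and side of the threshold, 71 fell short of it and 19 passed it. No paired analysis was possible because the labels give no number that ties an IP library to an Input library. The UMI contrasts were shallower and gave fewer calls than the full-length ones, and the part of depth in this was not tested.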
